A study of Mus musculus with 2 samples.

Results

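The serine, one-carbon and asparagine synthesis enzymes described here are 10 genes: Phgdh, Psat1 and Psph of serine synthesis, Shmt1 and Mthfd1 of cytosolic folate metabolism, Shmt2, Mthfd2, Mthfd1l and Aldh1l2 of mitochondrial folate metabolism, and Asns. They were taken by name, with every probe set that the platform annotation assigns to exactly 1 of these symbols. This gave 24 probe sets for 10 of the 10678 genes with a value. The cells are Neuro2a, an established mouse neuroblastoma line, and their RNA was hybridised to Affymetrix Mouse Genome 430 2.0 arrays. The 1 control array holds RNA of cells given a non-specific siRNA, and the other holds RNA of cells given an siRNA against Tmem132a, named mKIAA1583 in the labels. Both groups are thus transfected cells of the same line, and the time after transfection and the number of siRNA sequences are not given in the sources used here. The number of arrays, 1 per group, limits the precision: no value here has a replicate error, and no group was tested against the other.

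Serine is made from 3-phosphoglycerate, an intermediate of glycolysis, in 3 steps. Its side-chain carbon is then passed to tetrahydrofolate, which leaves glycine, and the folate-bound one-carbon unit serves the synthesis of purines, thymidylate and methionine. The cytosol and the mitochondrion each hold a set of these folate enzymes, and the mitochondrial set sends formate to the cytosol. Asparagine synthetase makes asparagine from aspartate with nitrogen from glutamine. Many of these genes are known targets of ATF4, the transcription factor of the amino acid response, and dividing tumour cells commonly depend on them.

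Markers of the labelled cell type were present. Of 13 markers of neuroblastoma and sympathetic neurons with a probe set, 12 passed the signal filter, among them Hand2 (15242 on the control array and 13190.2 on the other) and Phox2a (5143.9 and 4666.5). The summed signal of those 13 genes was 51633.5 for the control and 41917.1 for the Tmem132a siRNA, each of the 12 being lower. Whether this difference has a part in the values of the enzymes was not tested. Of 6 fibroblast markers and 3 glial markers 0 passed, with signals of at most 96 and 82 on either array, and of 4 immune markers Csf1r alone did (169.8 and 158.5). The targeted gene, Tmem132a, stood at 1825.5 on the control array and at 435.6, or 23.9% of that, on the other. The group of this second array rests on its title and treatment, because its free-text description carries the wording of the control. In RNA of a whole culture, fewer cells with a transcript and less of it per cell cannot be told apart.

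The promoter table of RefSeq (build GRCm38.p6) gave windows from 250 bases before to 50 after the annotated start for 9 of the 10 genes, with 2 windows for Psat1 and so 10 in all. They were searched on both strands for TGATGNAA, the core of the C/EBP-ATF response element through which ATF4 acts, and for CACGTG, the E-box that MYC proteins can bind. The ATF4 element was found in 1 of the 10 windows of these genes, that of Asns, where 3.97% of all 32851 windows hold it, and CACGTG in 0 of the 10, against 7.15% of all. A further motif, GCGCATGC, part of the NRF1 site, was added after the Shmt2 window had been read. The match there was thus fixed in advance, and 2.71% of all windows hold this motif. No other window of the 10 held it, and its Shmt2 matches on both strands overlap. The 100 bases before the start are shown for Asns, the window with the ATF4 element, and for Shmt2, the 1 enzyme at least 1.5-fold lower. Capitals mark the motif matches, and both genes lie on the minus strand. The Asns stretch is chr6:7693210-7693309 and the Shmt2 stretch chr10:127522445-127522544.
Asns: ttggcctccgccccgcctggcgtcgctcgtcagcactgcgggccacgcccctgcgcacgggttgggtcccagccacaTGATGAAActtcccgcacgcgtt
Shmt2: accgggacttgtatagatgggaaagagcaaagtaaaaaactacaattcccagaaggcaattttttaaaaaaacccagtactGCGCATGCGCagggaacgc
The element of Asns lies 23 to 16 bases before the annotated start, and the matches of Shmt2 lie 19 to 10 bases before theirs. The stretches also differ in composition, with 70% G and C for Asns and 43% for Shmt2. These are letters in a window and say nothing of binding in these cells.

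Of the 10 enzymes, 8 were higher and 2 lower on the Tmem132a siRNA array. The 8 higher genes lay between 0.09 and 0.65 in log2 ratio (Tmem132a siRNA over control siRNA), and the 2 lower ones were the serine hydroxymethyltransferases Shmt1 (-0.05) and Shmt2 (-0.67). Probe sets of Shmt1 lay on both sides of 0, so its place among the lower genes is not a direction. The median over the 10 was 0.36, against 0.02 over all 10678 genes, of which 51.8% had a ratio above 0. The differences were small. At 1.5-fold (0.58 in log2), 1 enzyme was higher, Aldh1l2, where 8.82% of all genes were, and 1 was lower, Shmt2, where 9.11% were. These shares are near the background. At 2-fold, 0 of the 10 differed, where 4.54% of all genes did.

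The gene values are means over their probe sets, so counts of probe sets are not separate support. Of 24 probe sets, 18 had a ratio above 0, against 51.8% of the 19316 that passed the signal filter with 1 symbol. All 24 passed the filter, a mean signal of 77.25, and were above that level on both arrays, the lowest signal being 174.4. Probe sets of the same gene scattered around its mean with an SD of 0.39 over 5072 genes, and over the 1320 genes with several probe sets of signal 1000 or more the SD was 0.21. This spread is technical, within the same RNA samples, and is not the error between cultures. The plot of signals shows each probe set on both arrays.

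**Figure D1:**
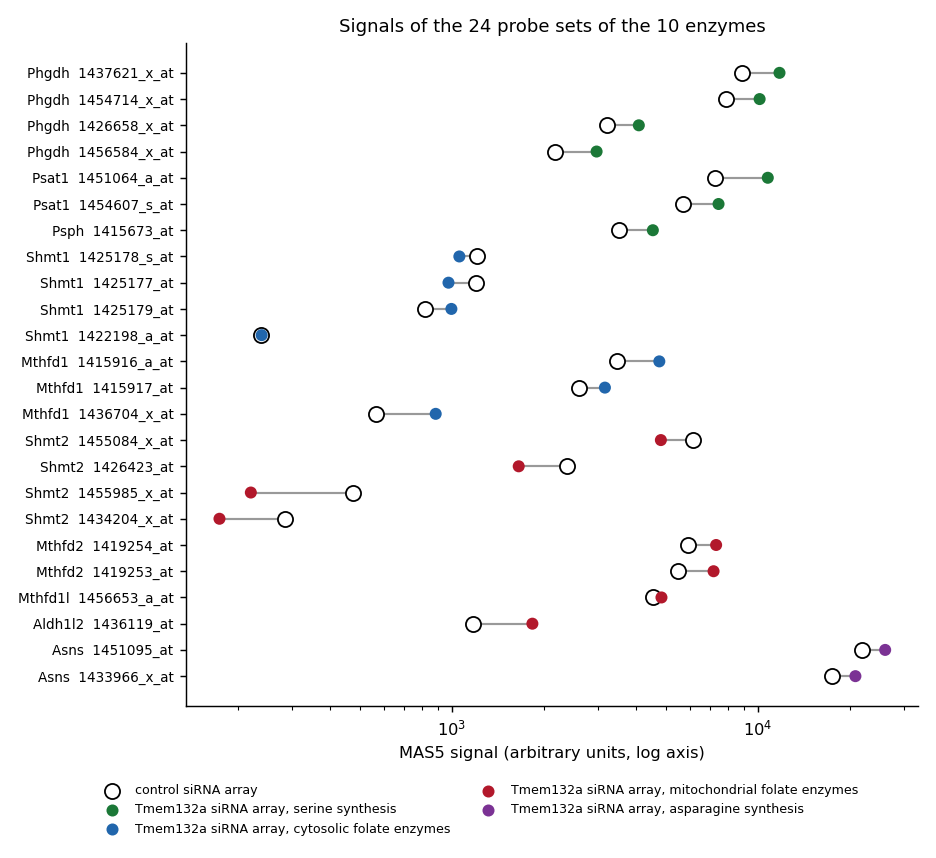
MAS5 signal (arbitrary units, log axis) of the 24 probe sets with the control siRNA (open circles) and the Tmem132a siRNA (filled, coloured by role), 1 array each. The Tmem132a siRNA signal is to the right for 18 probe sets and to the left for 6, of which 4 are of Shmt2 and 2 of Shmt1.

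The enzymes of serine synthesis were each higher with the Tmem132a siRNA, by similar amounts. Phgdh, phosphoglycerate dehydrogenase, draws 3-phosphoglycerate out of glycolysis and is the first step. Its brightest probe set, 1437621_x_at, went from 8911.1 on the control array to 11771.7 on the Tmem132a siRNA array. The next, 1454714_x_at, went from 7901 to 10137.4. The remaining probe sets, 1426658_x_at and 1456584_x_at, went from 3210.6 to 4086.4 and from 2182.9 to 2974.3. All 4 were higher with the Tmem132a siRNA, and their log2 ratios lay close together, between 0.35 and 0.45 with a mean of 0.39 (SD 0.05, n = 4 probe sets). All 4 have the x suffix, a kind of probe set that can also bind related transcripts, and 2 further probe sets that the annotation gives to Phgdh together with a predicted gene each were left out. Those had ratios of 0.62 and 0.63, larger than the 4 and past 1.5-fold, and cannot be assigned to 1 gene.

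Psat1, phosphoserine aminotransferase, is the next step and uses glutamate as the nitrogen donor. Its probe set 1451064_a_at had signals of 7237.4 and 10779.4, a ratio of 0.57 that lies just below 1.5-fold. Its other probe set, 1454607_s_at, had signals of 5689.4 and 7442.6, and the gene mean was 0.48 (SD 0.13, n = 2 probe sets). Psph, phosphoserine phosphatase, releases serine in the last step. Its only probe set, 1415673_at, had signals of 3515.3 and 4540.9, a ratio of 0.37. The ratios of the 3 genes had a median of 0.39 and an SD of 0.06 among them, less than the spread of 0.39 between probe sets of 1 gene, so that their order is not resolved.

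The cytosolic folate enzymes did not share a direction. Shmt1, the cytosolic serine hydroxymethyltransferase, splits serine into glycine and a folate-bound one-carbon unit. Of its 4 probe sets, 1425178_s_at had signals of 1205.7 and 1059.5 and 1425177_at of 1197.3 and 976.4, both lower with the Tmem132a siRNA. Probe set 1425179_at went the other way, from 820.8 to 997.9, and 1422198_a_at had 238.6 and 239.5. The probe sets thus ran from -0.29 to 0.28 around a mean of -0.05 (SD 0.25, n = 4), and Shmt1 has no direction in these data.

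Mthfd1, the cytosolic enzyme that interconverts the folate forms used for purines, thymidylate and methionine, was higher in each of its 3 probe sets. The signals were 3459.7 and 4767.4 for 1415916_a_at. They were 2603.3 and 3166.4 for 1415917_at, and 566.3 and 886.8 for the dimmer 1436704_x_at. The log2 ratios were 0.46, 0.28 and 0.65, with a mean of 0.46 (SD 0.18, n = 3 probe sets), which is 1.38-fold. The largest of these ratios comes from the dimmest probe set, and only that one passed 1.5-fold.

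The mitochondrial folate enzymes held both the lowest and the highest ratio of the 10. Shmt2, the mitochondrial serine hydroxymethyltransferase, was lower in all 4 probe sets. Its brightest, 1455084_x_at, went from 6150.4 to 4823.7, or 78.4% of the control signal. Probe set 1426423_at, without a suffix for shared sequence, went from 2380.5 to 1655.8 (69.5%). The dim probe sets 1455985_x_at and 1434204_x_at went from 475 to 220.8 (46.5%) and from 284.7 to 174.4 (61.2%).

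The 4 ratios of Shmt2 ran from -0.35 to -1.11, and the 20 probe sets of the other 9 genes from -0.29 to 0.65. The ranges did not overlap, but Shmt2 was singled out as the lowest gene on these same ratios. The nearest ratios, -0.35 for Shmt2 and -0.29 for Shmt1, were closer together than the probe set SD of 0.39. How often the lowest gene of a list is separated in this way was not counted, so this does not set Shmt2 apart. The gene mean was -0.67 (SD 0.32, n = 4 probe sets), which is 1.59-fold lower. The direction was shared by all 4, but not the size: both bright probe sets stayed under 1.5-fold and both dim ones passed it. Measured by its brightest probe set alone Shmt2 had a ratio of -0.35, and without probe sets of the x, s and a kinds one of -0.52, each under 1.5-fold. Among all genes with several probe sets, 25.6% had all of them below 0 and 29.6% all of them above 0.

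Mthfd2, a dehydrogenase and cyclohydrolase that works on the one-carbon unit made by Shmt2, was higher in both probe sets. The signals were 5930.2 and 7308.8 for 1419254_at and 5478.4 and 7169.2 for 1419253_at, with a mean ratio of 0.34 (SD 0.06, n = 2 probe sets). The gene means of Mthfd2 and Shmt2, consecutive steps of 1 pathway, thus lay 1.02 apart on the log2 scale. The dim probe sets of Shmt2 have a part in that distance. By the brightest probe set alone the ratios were nearer, 0.30 for Mthfd2 and -0.35 for Shmt2. Mthfd1l, the synthetase that releases formate from the mitochondrion, had signals of 4546.9 and 4845 in its only probe set, a ratio of 0.09. This was the smallest difference among the 8 higher genes and is below the spread between probe sets.

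Aldh1l2, a mitochondrial dehydrogenase that oxidises formyl-tetrahydrofolate to carbon dioxide with gain of NADPH, had the highest ratio. Its only probe set, 1436119_at, went from 1172.5 on the control array to 1835.1, a ratio of 0.65 or 1.56-fold. No second probe set was there to compare. The median of the 4 mitochondrial enzymes was 0.22 and that of both cytosolic ones 0.21. Without x, s and a probe sets they were 0.34 and 0.14. With members on both sides of 0 in each set, these medians do not tell whether the compartments differed.

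Asns, asparagine synthetase, had one of the smaller ratios. Probe set 1451095_at had signals of 21858.2 and 26062.2 and 1433966_x_at of 17513.3 and 20835.5, both 1.19-fold higher with the Tmem132a siRNA. The log2 ratios of both rounded to 0.25. The highest signal of any probe set was 48952.7 for the control and 50921.7 for the Tmem132a siRNA, so Asns was below the top of the range. Asns is the member whose promoter window holds the ATF4 element printed above, and its ratio was below the median of the 10. Whether the element has a part in that ratio was not tested.

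**Figure D2:**
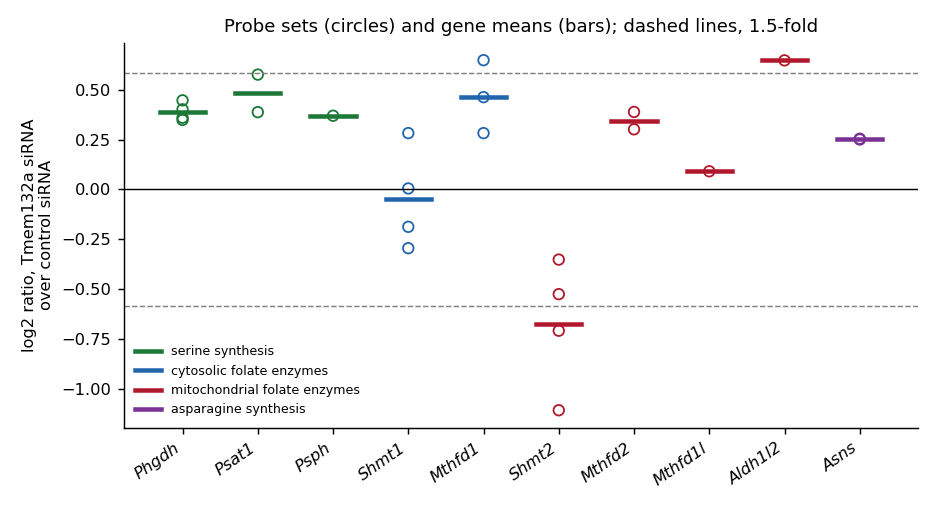
Log2 ratio, Tmem132a siRNA over control siRNA, of each probe set (circles) and each gene's mean (bars), coloured by role, with dashed lines at 1.5-fold. The 3 serine synthesis genes lie between 0.37 and 0.48, Shmt1 straddles 0, and all 4 circles of Shmt2 are below 0.

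From the highest ratio to the lowest the order was Aldh1l2, Psat1, Mthfd1, Phgdh, Psph, Mthfd2, Asns, Mthfd1l, Shmt1 and Shmt2. Of the 9 gaps between neighbours in that order, 8 were smaller than the probe set SD of 0.39. The exception was the gap of 0.62 between Shmt1 and Shmt2, and these values give no replicate error for it. That gap depends on the dim probe sets of Shmt2. By the brightest probe set alone Shmt1 had -0.19 and Shmt2 -0.35. With the stricter filter they had -0.07 and -0.44. In both settings the genes lay closer together than that SD, and in the other settings farther apart. Of the 7 genes with several probe sets, 5 had all of them above 0 (13 probe sets in all), Shmt2 had all of them below 0, and Shmt1 had both. Over all 5072 genes with several probe sets, 29.6% had all of them above 0 and 25.6% all of them below 0. Probe sets of 1 gene share their RNA and, where their targets overlap, their sequence, and are not replicates of the treatment.

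**Figure D3:**
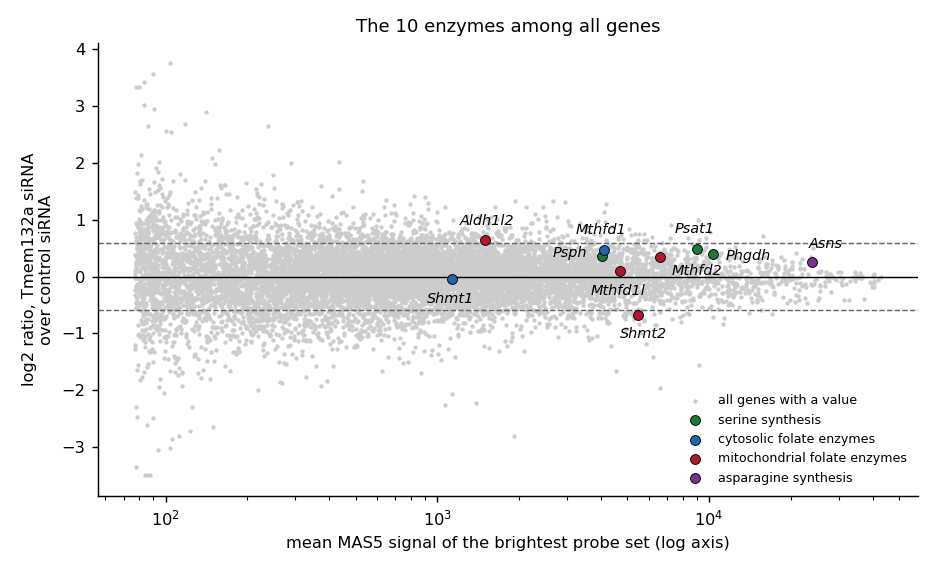
Log2 ratio against the mean signal of the brightest probe set (log axis) for all 10678 genes (grey) and the 10 enzymes (coloured by role), with dashed lines at 1.5-fold. The enzymes are bright genes with signals above 1000, a range in which the grey cloud is narrow, and all but Aldh1l2 and Shmt2 lie inside the dashed lines.

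Ratios narrow as signal grows, so the enzymes were also set beside genes of similar brightness. The brightest probe set of each enzyme had a mean signal of at least 1133. Among the 4569 genes whose brightest probe set reached 1000, the median ratio was 0.01 and the SD 0.36, 51.8% lay above 0, and 90.4% were within 1.5-fold. Of those genes, 4.57% passed 1.5-fold upward and 5.01% downward. The ratios of Aldh1l2 (0.65), Psat1 (0.48), Mthfd1 (0.46), Phgdh (0.39) and Psph (0.37) were above that SD, the last barely. So was the size of the Shmt2 ratio. The share of those 4569 genes past their own SD was not counted, so this does not set the enzymes apart. A list of 9 common reference genes had a median of -0.28, with 6 below 0, Actb at 0.01 and Tbp, at 0.59, the only one past 1.5-fold.

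The reactions around the enzymes were measured by 11 gene lists, reference genes included, with 92 genes on the array, of which 80 passed the filter. Of the genes named in these lists for passing 1.5-fold, Mtr, Cbs, Tyms, Eno2, Cebpb, Cebpg and Tbp were under it in at least 1 alternative setting. Counts in these lists are to be read against all genes, with 51.8% above 0, and with 8.82% past 1.5-fold upward and 9.11% downward. Of the glycolytic genes around 3-phosphoglycerate, the 5 that passed the filter lay below 0, with a median of -0.29. The reference genes had nearly the same median in the main setting, -0.28, so the glycolytic list is not set apart from them there. By the brightest probe set alone the medians were -0.13 for the reference genes and -0.29 for the glycolytic list. Pgk1, which makes 3-phosphoglycerate, averaged -0.37 over 3 probe sets, the brightest of which went from 21114.8 to 16321.8. Pgam1, which takes it onward, had signals of 15507.2 and 12656.4 (-0.29). Eno2, the neuronal enolase, had the largest ratio of this list at -0.59, from 2682.4 to 1778.4, and alone passed 1.5-fold.

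Enzymes that use serine and glycine differed both ways. Of 10 that passed, 6 lay above 0. Their median was 0.14, but 0.31 with no filter, 0.37 with the stricter filter or by the brightest probe set, and 0.40 when probe sets with those suffixes (x, s, a) were dropped, so its size is not settled. Cth, cystathionine gamma-lyase, which makes cysteine at the end of transsulfuration, had signals of 2039.1 and 4011.3, a ratio of 0.98. Cbs, cystathionine beta-synthase, joins serine to homocysteine one step earlier and was lower, from 451.7 to 301.2 in its brightest probe set, with a mean of -0.84 over probe sets at -0.58 and -1.09. The other 8 were within 1.5-fold, among them Srr, serine racemase, at 0.54 and Ptdss1, phosphatidylserine synthase, at 0.46. The glycine cleavage system, which yields a one-carbon unit from glycine in the mitochondrion, had 3 genes that passed, Dld at 0.43, Gcsh at 0.19 and Gldc at 0.12.

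The methionine cycle, which takes methyl groups from folate, had a median of 0.25 over 7 genes, 5 of them above 0. Mtr, methionine synthase, had the largest ratio at 0.66 over probe sets at 0.48 and 0.84, its brighter one going from 330.6 to 461.6. Its reductase Mtrr had signals of 1499.4 and 2135.3, a ratio of 0.51. Ahcy, which clears adenosylhomocysteine, lay at -0.04. Folate carriers had a median of 0.15 over 6 genes with 0 past 1.5-fold, and Folr1, a folate receptor, lay farthest from 0 at -0.40. Of that list Slc25a32, which carries folate into the mitochondrion, had 0.29 and the reduced folate carrier Slc19a1 had 0.25. Other folate enzymes had a median of -0.14 over 5 genes, also with 0 past 1.5-fold. Mthfd2l, the relative of Mthfd2, had a mean of -0.54 with all 4 probe sets below 0, opposite in sign to Mthfd2, and its brightest had signals of 332.3 and 224.3.

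De novo purine synthesis, the main consumer of formyl-tetrahydrofolate, had a median of -0.02 over 11 genes, with 5 above 0 and 0 past 1.5-fold. Adsl, adenylosuccinate lyase, had the largest ratio at 0.56, from 1884.1 to 2776.8. Atic, which takes the second formyl group, lay at 0.42, while the probe sets of Gart, which takes the first, ran from -1.08 to 0.46. Thymidylate synthesis had a median of -0.30 over 5 genes, 4 of them below 0. Thymidine kinase 1 (Tk1) went from 2531.6 to 1091.7, a ratio of -1.21. Tyms, which uses the folate-bound one-carbon unit to make thymidylate, had a mean of -1.23, but over probe sets at -0.42 and -2.03.

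Genes of asparagine, aspartate and glutamine handling had a median of 0.00 over 8 genes, 4 on each side. Glul, glutamine synthetase, which makes the nitrogen donor of Asns, was lower, with a mean of -0.95 over probe sets at -0.46 and -1.44. Its brightest probe set had signals of 2257 and 833.5. Asrgl1, an asparaginase, lay at 0.52, Nars, the asparagine tRNA synthetase, at 0.11, and Got2, the mitochondrial aspartate transaminase, at -0.11 over probe sets that ran from -0.68 to 0.20.

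Regulators known to act on these enzymes had the highest median of the 11 lists, 0.46 over 11 genes, of which 10 were above 0 (51.8% of all genes) and 5 at least 1.5-fold higher (8.82% of all genes). The list was chosen with earlier results of these arrays known, so its direction is not independent evidence. Cebpb and Cebpg, bZIP factors that can pair with ATF4, had ratios of 0.69 and 0.66. The brightest probe set of Cebpb went from 1479.1 to 2239.9 and that of Cebpg from 832.7 to 1215.4. Atf3, Trib3 and Ddit3, themselves targets of ATF4, had 1.39, 1.23 and 1.01, and Atf4 had 0.31, a ratio in the range of the enzymes. Nupr1 had 0.46, Atf5 0.06 and Nfe2l2, which encodes NRF2, 0.29. The MYC genes lay on opposite sides, Myc at 0.31 and Mycn at -0.48. Within 1.5-fold were 80% of the enzymes, 82.1% of all genes and 90.4% of genes whose brightest probe set reached 1000. Atf3, Trib3 and Ddit3, the highest of the regulators, passed 2-fold. Ddit3 was just past it and had 0.97 by its brightest probe set and 0.81 with a pseudocount.

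**Figure D4:**
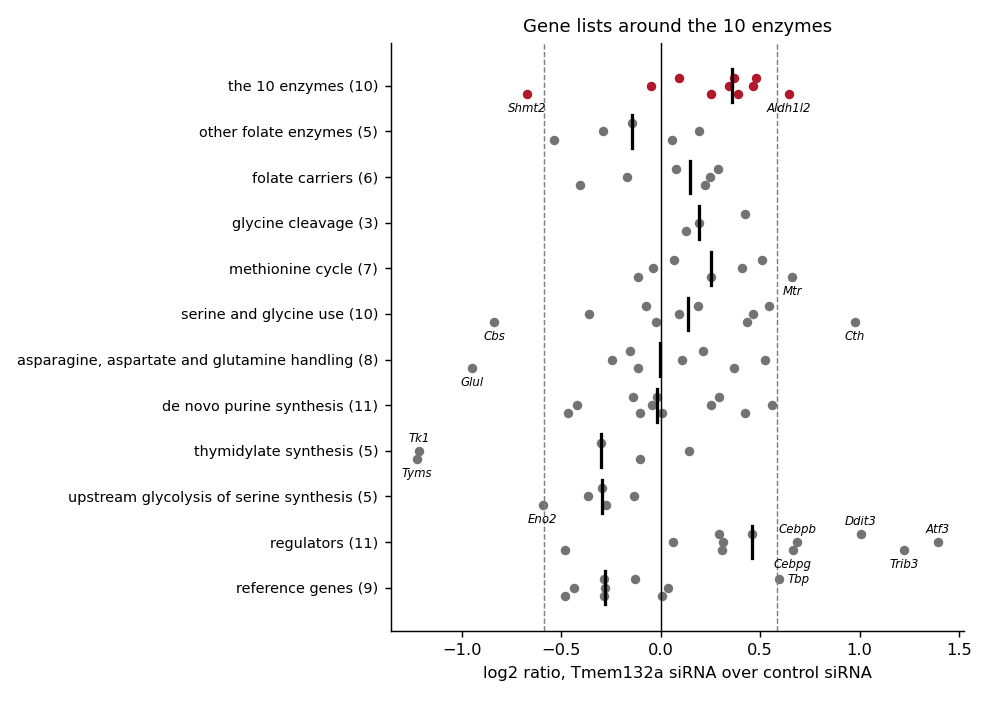
Log2 ratio, Tmem132a siRNA over control siRNA, of each gene that passed the signal filter (points) by gene list, with list medians (black bars), the number of genes in brackets and dashed lines at 1.5-fold; genes past 1.5-fold are named. The 10 enzymes (red) have a median of 0.36, that of the regulators is 0.46 and that of the methionine cycle 0.25, and the medians of the glycolytic, thymidylate, reference and other folate lists are below -0.1.

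No enzyme changed sign under other processing of the same arrays, but some sizes moved. Several settings could hardly move any of the 10 ratios. All 24 probe sets were above the filter and the floor, so dropping either changed nothing. Both arrays had the same trimmed mean before rescaling, so leaving that out left the ratios nearly unchanged. Counts over the 10 settings overstate stability for that reason. Over up to 10 alternative settings the ratio of Phgdh stayed between 0.38 and 0.41, that of Psat1 between 0.47 and 0.57, that of Mthfd2 between 0.30 and 0.36 and that of Asns between 0.25 and 0.28. Aldh1l2 stayed past 1.5-fold in all 10, between 0.61 and 0.65. It has 1 bright probe set without a suffix, so the filter, floor removal, brightest probe set and suffix settings could not change that ratio. Without rescaling it was also 0.65. Shmt2 stayed below 0 in all 10, between -0.35 and -0.68, but was under 1.5-fold in 4 of them. Mthfd1 ranged from 0.28, without x, s and a probe sets, to 0.47, and Shmt1 from -0.19, by its brightest probe set, to -0.01. These settings share the same 2 arrays and give no measure of how another pair of cultures would differ.

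**Figure D5:**
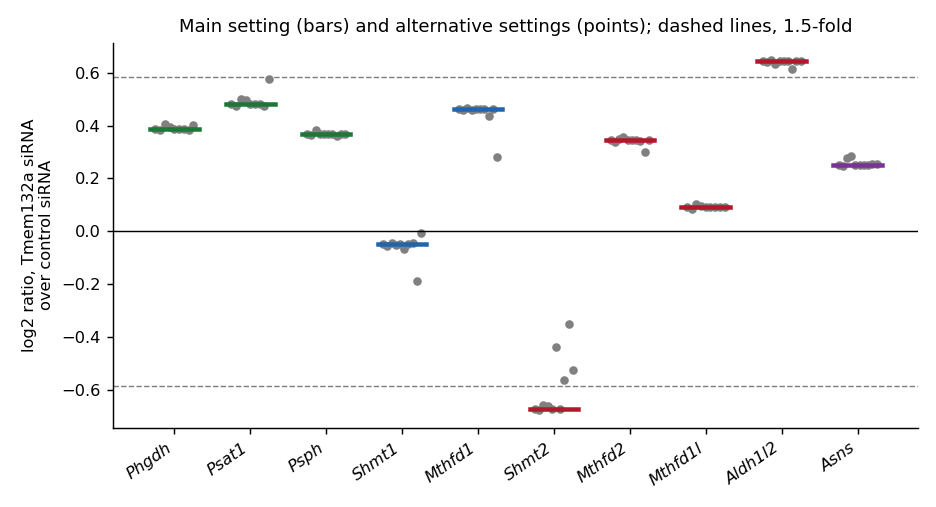
Log2 ratio of each enzyme in the main setting (bars, coloured by role) and in each alternative setting that gave a value (grey points), with dashed lines at 1.5-fold. No enzyme changes sign, and only Shmt2 crosses a dashed line.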

How the data were processed

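Each deposited column holds linear signal intensity, 1 value per probe set, from MAS5 as the authors ran it, per the submitters' processing notes. Version and scaling settings of MAS5 are not given in the sources used here. As deposited, the 2% trimmed mean over all probe sets was 500 on both arrays. Computation used Python 3.11.15, numpy 2.4.6, pandas 2.3.3, scipy 1.17.1, statsmodels 0.14.6 and matplotlib 3.10.9. Of 45101 probe sets, 64 array controls were left out. Both arrays were then set to 1 common 2% trimmed mean. It was already 497.4 on each, so this step hardly changed the signals. Probe sets with 1 symbol in the platform annotation (34945) gave gene values: the mean log2 ratio over probe sets whose mean signal reached the median of all (77.25), with signals under 14.5, the 20th percentile, raised to it. Signals printed are as deposited. The procedure was run on simulated arrays in which all probe sets of some bright genes were shifted alike. That checks the computation only, not dim or disagreeing probe sets or the error between cultures.

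No test was possible, so genes are counted past 1.5-fold and 2-fold beside the share of all genes. Named are all 10 enzymes, Tmem132a and, of each wider list, each gene past 1.5-fold or else the one with the largest ratio; further list members given were chosen after their values were seen. The search for GCGCATGC was added after the data were seen. The enzymes and lists were chosen with earlier results of these data known. List genes without a probe set of 1 symbol were not analysed here.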

Additional observations from a re-analysis of the deposited data

How the results depend on the processing

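There were 10 alternatives. For scaling: none, centring on the median, quantile normalization, and loess (span 0.3). For dim signals: every probe set kept, a stricter filter at 462.8 (the 75th percentile), the floor dropped, and the floor replaced by a pseudocount of 79.2. For genes: their brightest probe set alone, and only probe sets whose suffix lacks x, s and a. No ratio of the 10 enzymes changed sign. Keeping every probe set or dropping the floor could not change these ratios, and no scaling left them nearly as they were. None moved by 0.39, the SD of probe sets around their gene mean, but most of the ratios are themselves no larger than that, so this bound says little about stability. The median of the enzymes ran from 0.28 to 0.37. The count of enzymes above 0 was 8 in 9 of the 10 alternatives and 5 of 7 without suffixed probe sets, where Phgdh, Psat1 and Mthfd1l have no value. The count at least 1.5-fold lower was 0 with the stricter filter, with the pseudocount, by the brightest probe set and without suffixed probe sets, where Shmt2 had -0.44, -0.56, -0.35 and -0.52. Of the wider genes, Glul by its brightest probe set had -1.44, and Tyms had -0.64 with no filter, -0.68 with the pseudocount and -0.42 by its brightest probe set. Mtr, Cbs, Eno2, Cebpb, Cebpg and Tbp were under 1.5-fold in at least 1 alternative, and Dld passed it with no filter (0.75). With no filter, genes past 1.5-fold numbered 8 in place of 5 among the regulators (3 with the pseudocount), 5 in place of 2 for serine and glycine use, 3 in place of 1 for asparagine, aspartate and glutamine handling, 2 in place of 1 for the methionine cycle and 1 in place of 0 for other folate enzymes. For thymidylate synthesis 1 in place of 2 passed with the stricter filter and by the brightest probe set. The median for serine and glycine use ran from 0.13 to 0.40. The medians of 4 lists changed sign in at least 1 alternative: other folate enzymes (to 0.03), folate carriers (to -0.17), purine synthesis (to 0.18) and asparagine, aspartate and glutamine handling (to 0.14). The cause of these changes was not tested. Dim probe sets vary most, and 1 array per group leaves the error between cultures unknown.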
